A study of Mus musculus with 4 samples.

Results

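The subject here is the mouse Zfp genes at which the chromatin-associated ubiquitin ligase Trim33 was found at a gene end in cultured T helper 17 (Th17) cells. A member is a protein-coding gene of the mm10 RefSeq annotation whose symbol is Zfp followed by a digit. It must also have the summit of a Trim33 peak, the position of highest signal, within 1000 bp of either end of the gene. By this rule 169 of 397 Zfp genes (42.6%) were members and 228 were not. Among all 21887 protein-coding genes, 7306 had such a summit, which is the background of 33.4%. Leaving out the Zfp genes it was 33.2%, and leaving out symbols that begin with Olfr, Vmn or Gm or end in Rik it was 38.1%. The peaks themselves chose the members, so no test of these shares was made and nothing is read from their difference.

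The study mapped Trim33 by chromatin immunoprecipitation and sequencing (ChIP-seq) in 2 Trim33 ChIP libraries and 2 input DNA libraries. All 4 came from C57BL/6 naive CD4+ T cells of spleen and lymph nodes. These were grown on anti-CD3 and anti-CD28 with IL-6, TGF-b and antibodies against IL-4 and IFN-g. No genetic change is given in the labels, and neither is the number of animals. The deposited data are 1 list of 27050 peaks, named as from merged replicates. Each peak has 1 value, so no spread between libraries or depth per library can be given. A peak list does not measure expression, so the cell type was not checked by it. Of 5 Th17 marker genes looked up, Il17a, Il17f and Il23r had a gene-end summit, while Ccr6 and Rora had summits only farther from their ends.

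Zfp is the mouse symbol for zinc finger protein. Most of these genes encode proteins with tandem C2H2 zinc fingers, small zinc-binding folds that read DNA sequence. Many also carry a KRAB domain, which recruits Trim28, a relative of Trim33, and through it the H3K9 methyltransferase Setdb1 and HP1 proteins. KRAB zinc finger genes multiplied by local duplication, so they lie in clusters on a few chromosomes, and many silence transposable elements. A few genes carry the Zfp symbol for other folds, such as the Zfp36 family, whose CCCH fingers bind RNA.

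The DNA at the start of these genes is shown first, since the summits lay there. The windows run from 250 bases before to 50 bases after an annotated start (RefSeq, GRCm38.p6), 5′ to 3′ on the strand of the gene, with every CG dinucleotide in capitals. The first 4 belong to members with the summit inside the window, the pair with the highest fold outside Zfp clusters and the pair with the highest fold within them. The others belong to Zfp genes without a gene-end summit, each from a cluster that had none. These are chr9:19622054-19622353 for Zfp317, chr9:72274638-72274937 for Zfp280d, chr9:20385109-20385408 for Zfp560, chr7:7121427-7121726 for Zfp954, chr4:147553027-147553326 for Zfp985 and chr2:177925601-177925900 for Zfp972.
Zfp317: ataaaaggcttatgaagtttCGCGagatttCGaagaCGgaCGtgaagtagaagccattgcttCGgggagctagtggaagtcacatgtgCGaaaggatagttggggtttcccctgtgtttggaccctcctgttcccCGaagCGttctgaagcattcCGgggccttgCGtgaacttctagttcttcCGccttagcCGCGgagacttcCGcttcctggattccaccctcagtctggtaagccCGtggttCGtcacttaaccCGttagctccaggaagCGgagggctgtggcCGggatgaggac
Zfp280d: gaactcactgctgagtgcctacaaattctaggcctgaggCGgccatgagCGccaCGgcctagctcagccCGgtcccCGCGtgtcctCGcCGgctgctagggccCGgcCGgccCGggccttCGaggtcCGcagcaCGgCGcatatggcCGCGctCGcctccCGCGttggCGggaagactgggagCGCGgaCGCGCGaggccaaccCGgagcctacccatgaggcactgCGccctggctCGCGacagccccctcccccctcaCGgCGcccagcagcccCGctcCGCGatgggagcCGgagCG
Zfp560: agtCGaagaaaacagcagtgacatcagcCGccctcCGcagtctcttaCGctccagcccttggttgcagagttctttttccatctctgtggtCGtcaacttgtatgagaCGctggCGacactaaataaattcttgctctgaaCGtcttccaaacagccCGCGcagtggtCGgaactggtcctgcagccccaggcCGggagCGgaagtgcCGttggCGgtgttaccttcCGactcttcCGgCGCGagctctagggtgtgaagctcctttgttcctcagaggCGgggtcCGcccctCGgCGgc
Zfp954: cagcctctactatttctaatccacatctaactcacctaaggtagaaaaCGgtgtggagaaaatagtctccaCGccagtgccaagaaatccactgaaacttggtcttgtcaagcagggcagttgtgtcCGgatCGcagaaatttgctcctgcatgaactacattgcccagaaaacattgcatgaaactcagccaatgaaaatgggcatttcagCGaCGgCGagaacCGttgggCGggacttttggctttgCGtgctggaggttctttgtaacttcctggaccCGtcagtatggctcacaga
Zfp985: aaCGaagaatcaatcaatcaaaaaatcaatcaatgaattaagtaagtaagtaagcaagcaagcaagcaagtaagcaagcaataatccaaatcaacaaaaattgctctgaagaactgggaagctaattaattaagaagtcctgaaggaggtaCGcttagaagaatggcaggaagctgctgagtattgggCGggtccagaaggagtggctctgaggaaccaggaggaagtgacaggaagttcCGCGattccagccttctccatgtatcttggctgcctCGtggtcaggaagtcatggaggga
Zfp972: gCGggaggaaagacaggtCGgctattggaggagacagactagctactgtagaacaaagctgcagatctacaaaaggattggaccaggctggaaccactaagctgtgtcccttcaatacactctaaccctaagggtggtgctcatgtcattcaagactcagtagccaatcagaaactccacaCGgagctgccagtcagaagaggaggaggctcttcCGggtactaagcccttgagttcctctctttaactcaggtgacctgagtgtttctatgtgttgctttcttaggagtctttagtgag

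The members' windows hold 20, 37, 23 and 11 CG dinucleotides in the order printed, against 6 and 4 in those of Zfp985 and Zfp972. Zfp985 is from the largest cluster without members. Zfp972 is from the one with the lowest median of CG relative to C and G content, so its low count reflects that choice. Over 194 other Zfp genes the median was 10 (quartiles 6 and 17). Members are shown at the start nearest the summit, the other 2 genes at the start nearest their 5′ end. At the latter start, used for later values, Zfp317 has 16. The Trim33 summit lay 63 bp upstream of the start shown in Zfp317. It lay 9 bp downstream in Zfp280d, 11 bp downstream in Zfp560 and 8 bp downstream in Zfp954.

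The authors' fold enrichment, the ratio of signal to background at the summit, was moderate at most members. Where a gene had several gene-end summits, the highest was taken. It ran from 2.88 to 15.4 over the 169 members, with a median of 5.79 (quartiles 4.69 and 7.98). For the 7137 other protein-coding genes with a gene-end summit the median was 6.07 (quartiles 4.88 and 7.83). Of the members, 89 lay below the median of all 27050 peaks (6.00-fold), and 16 (9.47%) reached 10-fold, as did 10.3% of the other genes. The highest peak of each member covered 290 bp at the median (quartiles 203 and 398 bp), against 227 bp (quartiles 175 and 309 bp) for all peaks. All peaks include those away from gene ends, and the width at the ends of other genes was not taken. Nothing is read from this difference. The −log10 q of the members' highest peaks ran from 2.86 to 56.4 with a median of 10.7, and their median rank by fold was 14526 of 27050. These values come from the peaks that defined the members and are a description without a test. Across members, fold showed little relation to gene length (Spearman rho 0.07 over 169 genes) or to the CpG content of the promoter (rho 0.175 over 137 genes). All these points share the same merged libraries.

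**Figure D1:**
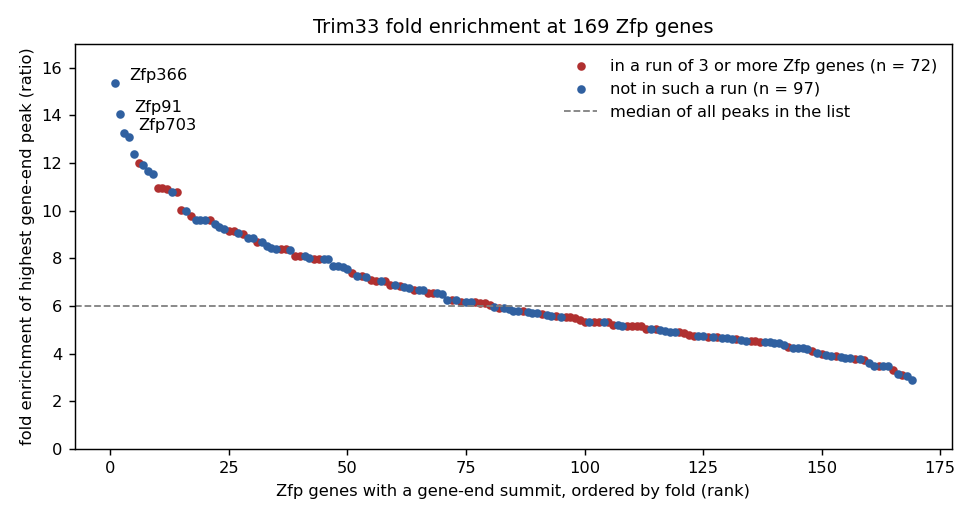
Highest gene-end fold enrichment (ratio, y axis) of the 169 member genes, ordered by rank on the x axis. Red points are the 72 genes in runs of 3 or more Zfp genes and blue points the 97 others. The dashed line is the median of all peaks, 6.00, and the red points span 11.99 to 3.08 and the blue points 15.4 to 2.88.

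The highest values belonged to genes outside the Zfp clusters. Zfp366, known as DC-SCRIPT for its part in dendritic cells, had 15.4-fold enrichment at chr13:99246914-99247639, rank 485 of all peaks, and a further gene-end summit of 5.26-fold. Zfp91, which encodes an atypical ubiquitin ligase of non-canonical NF-kB signalling, had 14.04-fold at chr19:12796651-12796981. That summit lay −688 bp from the start, upstream of the gene, and within 1000 bp of an end of Lpxn as well. A lower summit of 6.86-fold lay inside Zfp91. Zfp703, a transcriptional co-repressor known from human breast cancer, had 13.3-fold at chr8:26976813-26977272.

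The next in rank were Zfp317 with 13.1-fold and Zfp788 with 12.4-fold. Zfp78 had 11.99-fold, Zfp422 11.9-fold, Zfp715 11.7-fold, Zfp280d 11.5-fold and Zfp768 10.96-fold. Of these, Zfp78 and Zfp768 lie in Zfp clusters of chromosome 7. At the other end of the range were Zfp266 with 3.08-fold, Zfp143 with 3.06-fold and Zfp664 with 2.88-fold. Zfp143 encodes an activator that binds promoters and the ends of chromatin loops.

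Strand was known for 137 members, those with a start in the RefSeq promoter table, and it separates the start of a gene from its 3′ end. At 135 of the 137 (98.5%, exact binomial interval 94.8% to 99.8%) a summit lay within 1000 bp of the 5′ end of the gene model, called the start here, and at 129 only there. The promoter table lists a start elsewhere for some genes: the highest summits of Zfp786, Zfp597, Zfp526, Zfp580, Zfp219 and Zfp445 lay at this 5′ end but more than 1000 bp upstream of the nearest start in that table. A summit at the 3′ end was found in 8 (5.84%), and in 2 of these the start had none. Among 5752 other protein-coding genes with a gene-end summit and known strand, 95.2% had it at the start and 8.87% at the 3′ end. Zinc finger genes are known for repressive H3K9 methylation over the 3′ exons that encode the fingers. The members' gene-end summits were mainly at the start, as were those of the other genes. Summits over these exons but more than 1000 bp from a gene end were outside the rule. Trim33 over these exons was thus not tested.

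**Figure D2:**
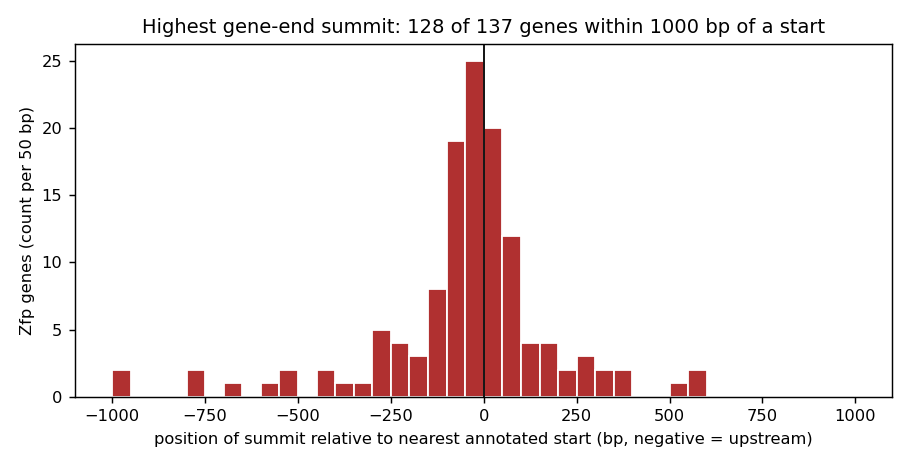
Position of the highest gene-end summit relative to the nearest annotated start (bp, x axis, negative is upstream) for 128 of 137 member genes, counted in bins of 50 bp. The other 9 lie farther than 1000 bp from any start in the promoter table and are not drawn. The counts are highest in the bins on both sides of 0.

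Relative to the nearest annotated start, the highest summit was upstream in 82 genes and downstream in 55, with a median of −23 bp (quartiles −114 and 60 bp). It lay within 100 bp of a start in 76 genes. By distance to an end of the gene model, with no need for strand, 88 of all 169 members had a summit within 100 bp. The median distance was 93 bp. Just inside the limit were Zfp287 at 958 bp, Zfp52 at 832 bp and Zfp945 at 771 bp. Just outside it were Zfp335 at 1064 bp with 8.22-fold, Zfp451 at 1151 bp with 6.57-fold and Zfp879 at 1231 bp with 6.11-fold. Zfp335 is needed for T cell maturation in mice, and Zfp451 encodes a SUMO ligase.

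The 8 summits at 3′ ends were mixed in position. Those of Zfp78, Zfp174 and Zfp512b also lay within 1000 bp of an end of a neighbour, namely Zfp28, Naa60 and Uckl1. The other 5 had no other protein-coding gene end in reach. Among them, Zfp771 had 9.79-fold at 447 bp inside its 3′ end and Zfp629 5.34-fold at 133 bp inside, and both lacked a summit at the start. Zfp329 had 6.82-fold just outside its 3′ end, against 4.72-fold at its start. Zfp13 had 4.46-fold at the 3′ end and 9.59-fold near the start, and Zfp53 had 3.06-fold and 4.86-fold. Zfp51, whose strand was not known, had 3 summits at its lower end up to 5.34-fold and 1 of 2.89-fold at its upper end.

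Several summits at 1 gene were not common. A single gene-end summit was found in 139 members, 27 had 2, Zfp78 and Zfp524 had 3, and Zfp51 had 4. The members' ends held 198 distinct peaks in all. Among genes with a pair of summits at the same end was Zfp148, a regulator of the G-rich elements of many promoters, with 8.85-fold at 23 bp inside and 6.32-fold at 494 bp outside. Zfp746, the repressor PARIS of Pgc-1alpha, had 8.11-fold and 3.47-fold. Zfp809, which silences murine leukaemia proviruses by their primer binding site, had 4.90-fold and 4.02-fold.

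The highest summit was within reach of another protein-coding gene end in 28 members (16.6%, interval 11.3% to 23.0%), against 27.3% of the other genes with a gene-end summit. Such a summit cannot be given to either gene. In 7 cases the other gene was itself a Zfp gene. Zfp786 and Zfp398 shared a peak of 8.38-fold, Zfp784 and Zfp580 a peak of 5.15-fold, and Zfp646 and Zfp668 a peak of 4.23-fold. The highest peak of Zfp28, 8.68-fold, lay beyond the 3′ end of Zfp78. Non-Zfp partners included Lpxn (with Zfp91), Bcs1l (with Zfp142), Cggbp1 (with Zfp654), Dock4 (with Zfp277) and Ccdc92 (with Zfp664).

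Gene length, which the rule did not use, was similar in the members and in the other Zfp genes. The members had a median of 16357 bp (quartiles 11097 and 28451 bp), and the 228 others 19265 bp (quartiles 12708 and 29653 bp). Among genes without a Zfp symbol the order was the other way round, with 23961 bp for those with a gene-end summit and 13808 bp for those without. Outside the shortest genes, the share of Zfp genes with a gene-end summit varied little with length. It was 39.7% at 5 to 20 kb, 42.5% at 20 to 50 kb and 38.6% over 50 kb. For genes without a Zfp symbol the shares were 35.9%, 40.9% and 39.4%. The longest members were Zfp407 with 381839 bp, Zfp827 with 166283 bp and Zfp609 with 135987 bp, and their gene-end folds were 6.50, 9.06 and 8.08.

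The shortest Zfp genes stood apart in count. Under 5 kb, 16 of 20 Zfp genes (80.0%, interval 56.3% to 94.3%) had a gene-end summit, against 799 of 5014 other genes (15.9%, interval 14.9% to 16.98%). In promoters with a CpG ratio of at least 0.5 the counts were 9 of 11 short Zfp genes and 523 of 1188 other short genes (44.0%). Under 0.5 they were 3 of 4 and 124 of 2877 (4.31%). Most other short genes with a window thus had a low CpG ratio, unlike the short Zfp genes. Zfp593 (2286 bp) had 5.86-fold, Zfp36 (2445 bp) 3.50-fold and Zfp768 (2520 bp) 10.96-fold. The 4 short Zfp genes without a gene-end summit were Zfp36l3, Zfp575, Zfp688 and Zfp691. Since even Zfp593, the shortest Zfp gene, is longer than its 2 windows of 1000 bp inside the gene together, the windows at the ends did not overlap.

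Zfp genes were then grouped by position. A cluster was a run of at least 3 Zfp genes with gaps of at most 100 kb. There were 30 clusters with 182 genes, of which 72 (39.6%, interval 32.4% to 47.1%) had a gene-end summit. Of the 215 genes outside clusters 97 had it (45.1%, interval 38.3% to 52.0%). These intervals overlap widely, and they cover counting error only. The median fold of the members was 5.73 in clusters and 5.86 outside.

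Most clusters held few genes, so their shares vary widely by counting alone, and they are given as counts. Each gene was a member in 3 clusters with 14 genes, no gene was in 7 clusters with 29 genes, and 20 clusters were mixed. The 6 genes from Zfp628 to Zfp580 (chr7:4915181-5053723) all had gene-end summits, led by Zfp628 with 9.13-fold, Zfp524 with 7.98-fold and Zfp865 with 5.67-fold. So did the 5 genes from Zfp560 to Zfp846 (chr9:20345136-20605404). Here Zfp560 had 10.9-fold, Zfp26 10.04-fold, Zfp426 5.79-fold, Zfp846 4.69-fold and Zfp266 3.08-fold. Zfp263, Zfp174 and Zfp597 on chromosome 16 made up the remaining cluster of this kind.

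**Figure D3:**
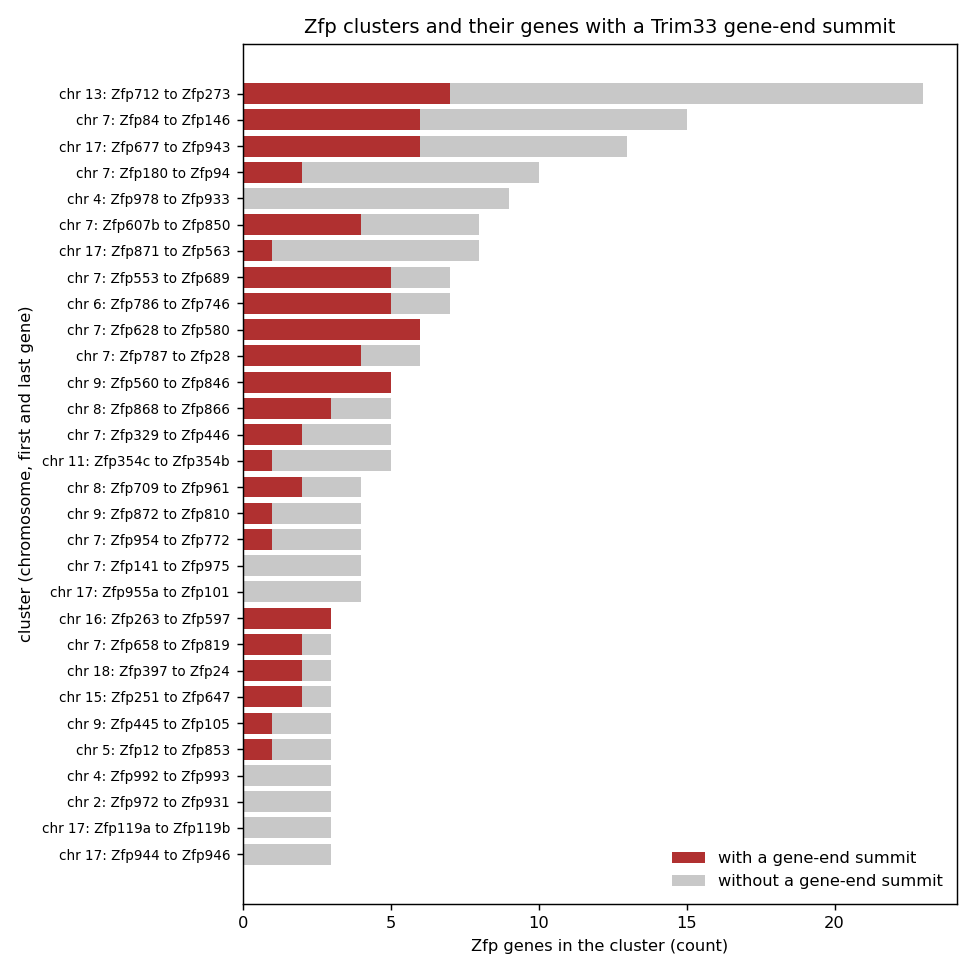
The 30 Zfp clusters (y axis, chromosome with the first and last gene), with the number of Zfp genes on the x axis. Red marks genes with a gene-end summit and grey genes without. The largest cluster, of 23 genes on chromosome 13, has 7 red, and 7 clusters have no red at all.

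At the other extreme were the clusters on distal chromosome 4. The 9 genes from Zfp978 to Zfp933 (chr4:147124882-147849126) and the 3 from Zfp992 to Zfp993 (chr4:146449030-146991471) had no gene-end summit. Their spans of 724 kb and 542 kb held no summit at all. The same was true of Zfp972, Zfp971 and Zfp931 on chromosome 2 (175 kb) and of Zfp944, Zfp758 and Zfp946 on chromosome 17 (119 kb). By chromosome, 4 of 27 Zfp genes (14.8%) on chromosome 4 had a gene-end summit, against 35.7% of its other genes. On chromosome 2 it was 6 of 27 (22.2%), against 30.8% of its other genes. On chromosome 9 it was 13 of 20 (65.0%), against 33.2%. On chromosome 10 none of 6 Zfp genes had a gene-end summit, against 36.3% of its other genes. All 5 did on chromosome 16, against 35.8%, and all 3 on chromosome 19, against 37.2%. On chromosome 7, with 93 Zfp genes the richest, the share was 50.5%, against 25.7% of its other genes.

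The large clusters were mixed. On chromosome 13 (chr13:67038594-67827000) 7 of 23 genes had gene-end summits, with Zfp58 at 6.53-fold, Zfp87 at 6.02-fold and Zfp65 at 5.57-fold the highest. On chromosome 7 (chr7:29768552-30169775) 6 of 15 had them, including Zfp566 at 6.66-fold, Zfp84 at 6.25-fold and Zfp82 at 5.34-fold. Zfp568, which represses a placental promoter of Igf2, had 5.04-fold in the same cluster. On chromosome 17 (chr17:21383707-21994366) 6 of 13 had them, with Zfp54 at 7.03-fold, Zfp52 at 6.89-fold and Zfp983 at 6.11-fold. In the run from Zfp180 to Zfp94 on chromosome 7, only the outermost of 10 genes were members, Zfp180 with 10.8-fold and Zfp94 with 7.05-fold.

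Smaller clusters with many members included the run from Zfp786 to Zfp746 on chromosome 6, with 5 of 7. There Zfp786 and Zfp398 were followed by Zfp746 and by Zfp212 with 7.10-fold. In the run from Zfp553 to Zfp689 on chromosome 7, 5 of 7 were members, with Zfp768, Zfp771 and Zfp553 (5.34-fold) the highest. From Zfp787 to Zfp28, 4 of 6 were, led by Zfp78, Zfp28 and Zfp444 with 8.09-fold. From Zfp607b to Zfp850, 4 of 8 were, with Zfp850 at 6.56-fold, Zfp60 at 5.55-fold and Zfp607a at 5.14-fold. On chromosome 8, Zfp868 (4.53-fold), Zfp963 (3.89-fold) and Zfp869 (3.79-fold) were members in a cluster of 5. Zfp329 and Zfp110 (3.74-fold) were 2 of 5, Zfp354c (6.11-fold) was 1 of 5 and Zfp870 (7.39-fold) 1 of 8.

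Promoter sequence was a feature that the rule had not used. The CpG ratio is the number of CG dinucleotides over that expected from the C and G content of the 300-base window. Members had a median ratio of 0.72 (quartiles 0.54 and 0.85, 137 genes), against 0.53 (quartiles 0.37 and 0.70) in 194 other Zfp genes. Members had a median of 17 CG dinucleotides and 58.3% GC, and the others 10 and 52.3%. For genes without a Zfp symbol the median ratio was 0.82 with a gene-end summit and 0.35 without. The difference was seen within clusters (0.65 in members and 0.53 in others) and outside them (0.77 in members and 0.50 in others). No test over genes was made.

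Read the other way, the share of Zfp genes with a gene-end summit was higher in classes with more CpG up to a ratio of 1. With a ratio under 0.25 it was 0 of 22, which allows a share of up to 13.6% by a limit of 3 counts and up to 15.4% by the exact interval. It was 29.9% at 0.25 to 0.5 (interval 21.0% to 40.0%), 43.5% at 0.5 to 0.75 (34.0% to 53.4%) and 58.9% at 0.75 to 1 (48.0% to 69.2%). Genes without a Zfp symbol had 15.4%, 39.9% and 59.0% in the same 3 classes, and 5.68% under 0.25. At a ratio of 1 or more, 8 of 14 Zfp genes (57.1%, interval 28.9% to 82.3%) had a gene-end summit, against 69.7% of the other genes (interval 67.3% to 72.1%). The share of Zfp genes was above that of the other genes at 0.25 to 0.5, beside it at 0.75 to 1 and below it at 1 or more, where the interval of the 14 genes includes the other genes' share.

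**Figure D4:**
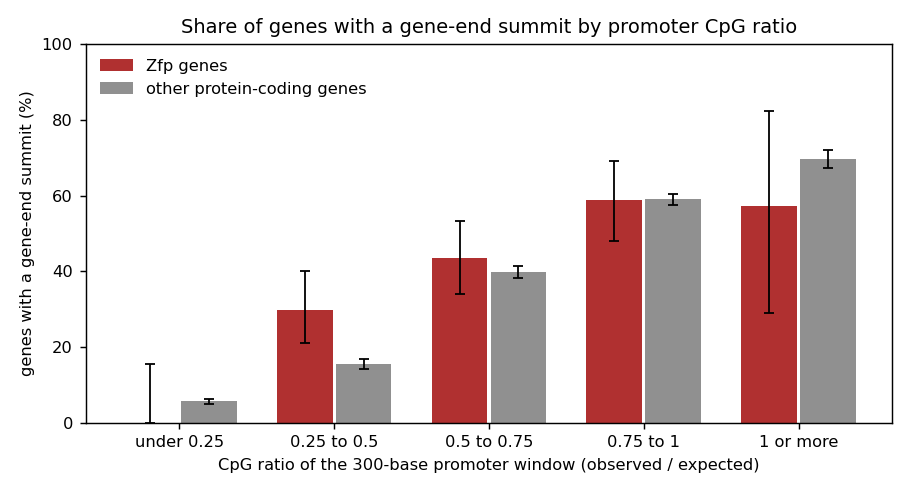
Share of genes with a gene-end summit (%, y axis) by the CpG ratio of the promoter window (x axis), for Zfp genes in red and other protein-coding genes in grey. Bars are exact binomial 95% intervals. Zfp genes are at 0 of 22 in the lowest class and at 58.9% in the class from 0.75 to 1.

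Repeated sequence also moved with membership. A promoter window was called repeated if any 50-base stretch occurred, on either strand, at another place among the RefSeq promoter windows. Only 2 of 44 repeated Zfp windows belonged to members (4.55%, interval 0.555% to 15.5%), namely those of Zfp983 and Zfp456. Of 287 windows with no repeat, 135 did (47.0%, interval 41.1% to 53.0%). Genes without a Zfp symbol went the same way. Of their windows, 36 of 5752 (0.626%) were repeated with a gene-end summit and 1667 of 11409 (14.6%) without one. For Zfp genes these were 2 of 137 (1.46%) and 42 of 194 (21.6%). Where over 20% of the window was repeated, 0 of 30 genes had a gene-end summit, which allows a share of up to 10.0% by a limit of 3 counts and up to 11.6% by the exact interval. Reads from repeated DNA may not be placed uniquely, and how they were handled is not given in the sources used here. The part of repeats in the missing summits was not tested.

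All 7 clusters without members held repeated windows. The median repeated share of a window was 70.1% for Zfp944 to Zfp946 and 48.6% for Zfp972 to Zfp931. It was lower on chromosome 7, with 7.17% for Zfp141 to Zfp975. On chromosome 4 it was 2.79% for Zfp978 to Zfp933 and 0.398% for Zfp992 to Zfp993. In clusters with members the median was 0 wherever windows were known. No test over clusters was made. On chromosome 17, Zfp955a and Zfp955b have identical windows of 300 bases. In another cluster of that chromosome, Zfp119a (chr17:55878904-55879047) and Zfp959 (chr17:55891999-55892142) share a run of 114 bases, shown here in capitals within 144 bases of each window on the strand of the gene.
Zfp119a: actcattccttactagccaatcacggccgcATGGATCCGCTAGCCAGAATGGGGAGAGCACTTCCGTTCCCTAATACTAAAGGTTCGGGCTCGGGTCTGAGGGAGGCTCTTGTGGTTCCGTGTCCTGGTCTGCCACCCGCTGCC
Zfp959: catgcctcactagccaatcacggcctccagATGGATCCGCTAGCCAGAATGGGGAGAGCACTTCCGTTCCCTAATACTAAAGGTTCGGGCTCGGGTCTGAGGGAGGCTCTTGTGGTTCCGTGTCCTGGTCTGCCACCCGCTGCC

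Where no 50-mer was repeated, 57 of 138 clustered genes (41.3%) and 78 of 149 other Zfp genes (52.3%) had a gene-end summit. Within the same windows the share was 32.2% (28 of 87) at a CpG ratio under 0.5 and 53.5% (107 of 200) at 0.5 or more. The relation to CpG was thus also seen without the repeated windows.

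**Figure D5:**
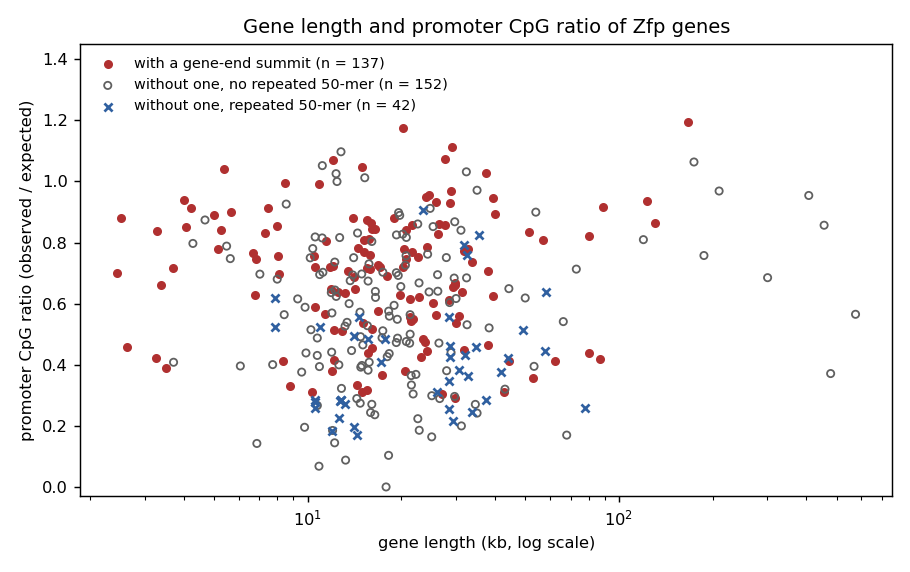
Gene length (kb, log scale, x axis) and promoter CpG ratio (y axis) of the Zfp genes with a promoter window. Red points are the 137 members, open circles the 152 genes without a gene-end summit and with no repeated 50-mer, and blue crosses the 42 with a repeated 50-mer. Members cover the range of lengths, and the crosses lie mostly at low CpG ratios.

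Symbols with high numbers were rarely members. Of 64 genes numbered 900 or higher, 7 had a gene-end summit (10.9%, interval 4.51% to 21.2%), against 162 of 333 with lower numbers (48.6%, interval 43.2% to 54.2%). The 7 were Zfp954, Zfp949, Zfp950, Zfp983, Zfp948, Zfp945 and Zfp963, with folds from 9.59 to 3.89. These genes had a median CpG ratio of 0.42, and 18 of 57 windows were over 20% repeated. With no repeated 50-mer the share was 6 of 28 (21.4%) for numbers from 900 and 129 of 259 (49.8%) for lower ones.

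Of 12 short motifs in the promoter windows, the GC box was more frequent in members than in other Zfp genes and CCAAT less frequent, without a test. With a CpG ratio of at least 0.75 the GC box was in 59.0% of 61 members' windows and 58.1% of 43 other Zfp windows, and CCAAT in 32.8% and 41.9%. Each was searched on both strands in 137 windows of members, 194 of other Zfp genes and 17492 of all protein-coding genes. The ETS core CCGGAAG was in 23.4% of the members' windows, 21.1% of the other Zfp windows and 11.9% of all. It was in 21.6% of windows of genes without a Zfp symbol that had a gene-end summit. The Zfp143 core ACTACAA was in 6.57%, 6.19% and 3.82%, and the NRF1 core GCGCATGCG in 6.57%, 2.58% and 2.41%. In the other genes with a gene-end summit these 2 cores were in 4.17% and 4.49%. With a CpG ratio of at least 0.75 the NRF1 core was in 8.20% of members' and 6.98% of other Zfp windows. There the ETS core was in 24.6% and 18.6%, and the Zfp143 core in 8.20% and 2.33% (5 of 61 and 1 of 43 windows). The GC box GGGCGG, which overlaps CpG content, was in 53.3%, 38.1% and 46.3%, and in 70.3% of windows of genes without a Zfp symbol that had a gene-end summit. CCAAT was in 40.1%, 56.2% and 39.2% of members', other Zfp and all windows, and in 35.4% of those of the other genes with a gene-end summit. The SMAD box CAGAC, which with its 5 letters is frequent by length alone, was in 54.0%, 51.0% and 48.8%. The palindrome GTCTAGAC was in 1 member's window and in none of the other Zfp windows. TGTGGT (RUNX) was in 13.9%, 18.6% and 15.1%, and TGANTCA (AP-1) in 4.38%, 2.58% and 7.03%. CACGTG was in 5.11%, 8.76% and 7.91%, AAGATGGCG (YY1) in 2.92%, 2.58% and 1.92%, and TGACGTCA in 2.92%, 3.61% and 2.33%. With a CpG ratio of at least 0.75, CACGTG was in 2 of 61 members' windows and 7 of 43 other Zfp windows. There AAGATGGCG was in 1 and 3, TGANTCA in 3 and 0, and TGACGTCA in 3 and 1. CAGAC was in 45.9% and 48.8% there, and TGTGGT in 8.20% and 9.30%. These counts are small and were not tested.

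Of 28 Zfp genes with known roles listed whatever their peaks, 16 (57.1%) had a gene-end summit, with a median of 5.33-fold. The share was 42.6% of all Zfp genes and 33.4% of all protein-coding genes. No test was made on this hand-picked list. The RNA-binding Zfp36 family, whose proteins bind AU-rich elements and speed the decay of cytokine mRNAs, had 3 listed members. Zfp36l1 had 8.86-fold at chr12:80113148-80113573, 270 bp upstream of its start and within reach of Gm52006 as well. Zfp36l2 had 3.59-fold at 21 bp from its upper end, and Zfp36 had 3.50-fold at 157 bp upstream of its start, with up to 10.4-fold elsewhere within 10 kb. Zfp318, needed for IgD in mouse B cells, had 6.66-fold, and Zfp384 had 5.62-fold. Zfp644 had 4.90-fold, Zfp292 4.69-fold and the RNA-binding Zfp106 3.79-fold.

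The 12 listed genes without a gene-end summit fell into 2 kinds. Zfp207, a kinetochore factor, had 11.7-fold enrichment and Zfp608 16.98-fold within the gene or 10 kb around it. Zfp335, Zfp638 and Zfp217 had 13.8-fold, 10.7-fold and 6.82-fold there. The other 7 had no summit in that range. They were Zfp57, which protects imprints, the stem cell factor Zfp42 (Rex1), Zfp281, Zfp410, Zfp423, Zfp462 and Zfp521. Over all 228 Zfp genes without a gene-end summit, 68 (29.8%) had a summit in this wider range. The share of all protein-coding genes was 53.9%, but that includes every gene with a gene-end summit. The 228 genes were chosen for lacking one, so the shares are not alike and nothing is read from their difference. The highest such summit of the 68 genes had a median of 6.23-fold and at most 19.4-fold at Zfp41. Over all 228 genes the nearest summit lay at a median of 30593 bp from a gene end.

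Partners of KRAB zinc finger proteins in silencing were looked up as a list of 19 genes, and 13 had a gene-end summit (68.4%, median 6.77-fold), against the background of 33.4% of all protein-coding genes. The list also holds Zfp57, itself a Zfp gene, and Trim33, the ChIP target, which counts among the 13 with 5.30-fold. Setdb1, the H3K9 methyltransferase, had 16.8-fold at 73 bp from its upper end. Morc3, a silencing ATPase, had 11.9-fold, the co-repressor Trim28 7.10-fold and its relative Trim24 6.99-fold. Cbx3 (HP1 gamma) had 5 gene-end summits up to 7.21-fold, whereas Cbx1 and Cbx5, the other HP1 genes, had none. Neither did Atrx, Dnmt1, Uhrf1 and Zfp57. Related zinc finger families had gene-end summits in 8 of 11 Zkscan genes (72.7%), 8 of 16 Zscan genes (50.0%) and 30 of 41 Zbtb genes (73.2%), against the same 33.4%, or 38.1% without Olfr, Vmn, Gm and Rik symbols. Their highest values were 11.9-fold at Zkscan8, 8.85-fold at Zscan20 and 13.96-fold at Zbtb39.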

How the data were processed

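Trim33 ChIP and input DNA of cultured Th17 cells were sequenced in 4 libraries. MACS2 (2.1.1.20160309), Bowtie (1.2.1.1), Trim Galore (0.3.7) and mm10 are named, without their roles, per the submitters' processing notes. Settings, threshold and the use of input were not given in the sources used here. The deposited list, from merged replicates, gives each peak a fold (a ratio at the summit), a −log10 p, a −log10 q and a score. The deposited score, in 100% of peaks 10 times the −log10 q with its decimals dropped, and the −log10 p were not used. Depth per library is unknown.

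Gene ends came from RefSeq (GRCm38.p6, the same assembly as mm10), without mitochondrial genes. Strand and promoter windows were found for 331 of 397 Zfp genes, and no window on chromosome 18 was used. The listed start nearest the 5′ end of the gene model gave the CpG ratio. Protein sequences were not used here, so the planned counts of zinc fingers and KRAB domains were not made. Intervals are 95% exact binomial (Clopper-Pearson) and cover counting error only, and genes are not replicates. No hypothesis test was made.

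The members and lists were chosen with earlier results of these data known. Genes were named by rule: the highest and lowest folds, summits at both ends, those nearest 1000 bp, the longest and shortest, up to 3 members per cluster of at least 5, and the known genes. Partner genes, short genes, neighbours and symbols numbered from 900 were named beside their counts after their values were seen. The count was checked on planted summits. Python 3.11.15, pandas 2.3.3, SciPy 1.17.1 and matplotlib 3.10.9 were used.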

Additional observations from a re-analysis of the deposited data

How the results depend on the processing

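Of 48 values recomputed under 7 alternatives, 36 stayed within the interval of the main value (or within 1.5 times of a count) and 12 did not. With peaks at or above the median fold only, 80 Zfp genes (20.2%) had a gene-end summit, 18.7% of clustered and 21.4% of other Zfp genes, with a median of 8.08-fold. With peaks at or above the median −log10 q, 81 genes (20.4%) had it, 18.1% of clustered and 22.3% of others, with a median of 8.08-fold. Both sets hold fewer peaks by construction. With a window of 2500 bp the share was 48.6% overall and 52.1% outside clusters. The share of all protein-coding genes was not recomputed in these settings. The background of 33.4% holds for all peaks and 1000 bp, so these shares cannot be set against it. Clustered genes had the lower share in each of these settings, also with clusters joined over 50 kb or 200 kb and with a window of 500 bp. Length, position and CpG medians stayed within their intervals under all alternatives run for them. The C2H2 alternative was not run, since protein sequences were not used here. No paired analysis was possible because the list of merged replicates gives 1 value per peak, and no library could be left out.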

Other observations

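Beside the 397 protein-coding Zfp genes, 19 loci with such a symbol are annotated as pseudogenes or long non-coding RNAs. Of these 19 loci, 6 had a gene-end summit, and 33.4% of all protein-coding genes had one. The share over all pseudogenes and long non-coding RNAs was not counted, so nothing is read from the 6 loci as a group. Among the 6, the highest was 13.8-fold at 70 bp from an end of Zfp335os, whose locus overlaps an end of Zfp335. Zfp652os had 7.10-fold, Zfp783 6.69-fold, Zfp85os 5.57-fold, Zfp389 5.06-fold and Zfp286os 4.13-fold. The other 13 loci, among them Zfp42-ps1, Zfp148-ps1 and Zfp36l1-ps, had none.

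Some genes without a gene-end summit had high peaks nearby. Zfp41 had 19.4-fold at 1392 bp from an end, Zfp341 13.6-fold at 1680 bp and Zfp777 11.9-fold at 1435 bp, all 3 outside the limit of 1000 bp and inside that of 2500 bp.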
